A study of Oryza sativa with 48 samples.

Results

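In the 2nd leaf of rice seedlings, 18 of 35667 gene identifiers had at least 4-fold lower levels than before treatment after 6 h and also after 72 h in salt solution, in both genotypes studied. The 18 were selected on these leaf values. A gene entered when its mean at 0 h was at least 5 CPM and its L was -2 or less at 6 h and at 72 h in the wild type and in the genotype labelled aoc. CPM is the read count per 1 M counts of the library, and L is the log2 ratio of a group's mean CPM plus 0.5 to the 0 h mean of the same genotype plus 0.5, so that -2 stands for 4-fold. The rule was met by 31 genes in wild-type leaf, by 53 in aoc leaf and by 18 in both. The leaf values at 6 and 72 h are therefore given as a description, with no test. Values that the rule did not use are the leaf libraries of 1 h and all root libraries.

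The plants were Oryza sativa seedlings of 2 genotypes. One is the wild type, Kitaake (WT), and the other is called aoc in the labels, which do not say how it was made, in which background or from how many lines. All grew for 11 days in hydroponics at 28 °C with 12 h of light and 60% relative humidity. They were then sampled untreated (0 h) or after 1, 6 or 72 h in 100 mM NaCl, which gives 16 groups of 3 libraries over 2 tissues, 2 genotypes and the 4 times. Each library holds RNA of 3 plants, from the root or from the 2nd leaf, and root RNA was extracted with another kit (RNeasy) than leaf RNA (Tri-Reagent), so tissue and extraction cannot be told apart. No untreated plants of the later hours are among the samples, so salt, time of day and plant age cannot be told apart. The 72 h samples were taken 3 whole days after the start, and the 1 h and 6 h samples within its first 24 h.

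Salt around the roots acts on a leaf in succession: water uptake drops within minutes to hours, and sodium then arrives with the transpiration stream and builds up over days. Leaves answer with stomatal closure, slower growth and large changes in transcript levels, part of which pass while others last. Jasmonates are stress hormones made from fatty acids of the chloroplast membrane. Allene oxide cyclase, abbreviated AOC, makes their precursor OPDA, and jasmonate signalling works through the removal of JAZ repressor proteins. The series title concerns jasmonate and salt tolerance, and the design sets the salt response of the genotypes side by side.

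Leaf libraries held 29.9 M to 41.0 M counts (median 32.7 M) and root libraries 28.6 M to 71.7 M (median 32.1 M). A floor of 3 counts in 1 library therefore lay at 0.0731 to 0.1004 CPM in leaf and 0.0419 to 0.105 CPM in root. Reads carried no molecular identifiers, so floors cover counting error only. The files give identifiers without names and 0 of the 18 were found in the reference table used, so no name or role is given to any of them, and tissue marker genes were not analysed here. By the numbers within the identifiers, the 18 lie on 9 chromosomes, with 4 on chromosome 3 and 3 on chromosome 1.

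The gene with the most counts was Os05g0375400. In WT leaf it stood at 2559, 1772 and 1596 CPM in the 3 libraries of 0 h, at 417, 553 and 381 CPM at 6 h, and at 371, 222.5 and 299 CPM at 72 h. In aoc leaf the values were 1987, 1415 and 1718 CPM at 0 h, 379, 339 and 367 CPM at 6 h, and 422, 248 and 263 CPM at 72 h. All libraries of the later hours lay below all libraries of 0 h in both genotypes. The 6 h mean was 22.8% of the 0 h mean in WT and 21.2% in aoc. CPM is not corrected for gene length, so the order of genes by CPM is an order of counts. In bulk tissue, fewer cells of a type and less RNA per cell cannot be told apart. Together the 18 genes held 3108 ± 420.4 CPM in WT leaf at 0 h (mean ± SD, n = 3, as for all groups) and 567.3 ± 56.4 CPM at 6 h. In aoc leaf the sums were 3181 ± 87.0 and 460.5 ± 13.1 CPM. At 72 h the sums were 473.0 ± 212 CPM in WT and 468.1 ± 145 CPM in aoc.

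The lowest L at 6 h belonged to Os03g0752500 in both genotypes. Its WT leaf libraries held 226, 235 and 244 CPM at 0 h, 103, 94.7 and 126 CPM at 1 h, and 3.66, 7.40 and 8.25 CPM at 6 h. Its aoc leaf libraries held 219, 255 and 201 CPM at 0 h, 52.0, 110.0 and 188 CPM at 1 h, and 2.36, 1.40 and 3.63 CPM at 6 h. The levels thus stepped down from 0 h through 1 h to 6 h with no overlap between groups in either genotype. L at 6 h was -5.08 in WT and -6.25 in aoc, and 2.74% and 1.09% of the 0 h mean were left.

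Os03g0226200 had the lowest L at 72 h, -4.44 in WT and -5.42 in aoc. In aoc leaf it stood at 70.5, 86.9 and 109 CPM at 0 h, at 12.9, 5.67 and 5.02 CPM at 6 h, and at 3.80, 0.343 and 0.643 CPM at 72 h, so that each later group lay below the one before. In WT leaf its 0 h libraries held 144, 7.02 and 71.9 CPM and its 6 h libraries 26.8, 2.59 and 4.50 CPM. WT replicate 2 of 0 h thus lay within the range of the 6 h libraries, and here the groups overlapped.

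Over the 18 genes, L at 6 h ran from -5.08 (Os03g0752500) to -2.05 (Os06g0289900) in WT, with a median of -2.85, and from -6.25 to -2.22 in aoc, with a median of -3.25. At 72 h it ran from -4.44 to -2.01 (Os07g0179300) in WT, with a median of -2.47, and from -5.42 to -2.09 (Os02g0589000) in aoc, with a median of -2.56. At 6 h, all 3 libraries lay below all 3 of 0 h for 17 of 18 genes in WT, where Os03g0226200 was the exception, and for 18 of 18 in aoc. At 72 h this held for 18 of 18 in each genotype. Among the 13337 genes at or above the level minimum, such separation downward was seen in 27.3% at 6 h and 17.9% at 72 h in WT, and in 24.4% at 6 h and 15.9% at 72 h in aoc. Nothing is read from these counts, since the rule used the same values. The rule's edge cut through a continuous range: the members nearest to it were Os07g0179300 at an L of -2.01 and Os06g0289900 at -2.05 in their least lowered group, and the genes nearest outside were Os10g0555900 at -1.99996 and Os02g0758000 at -1.996.

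**Figure D1:**
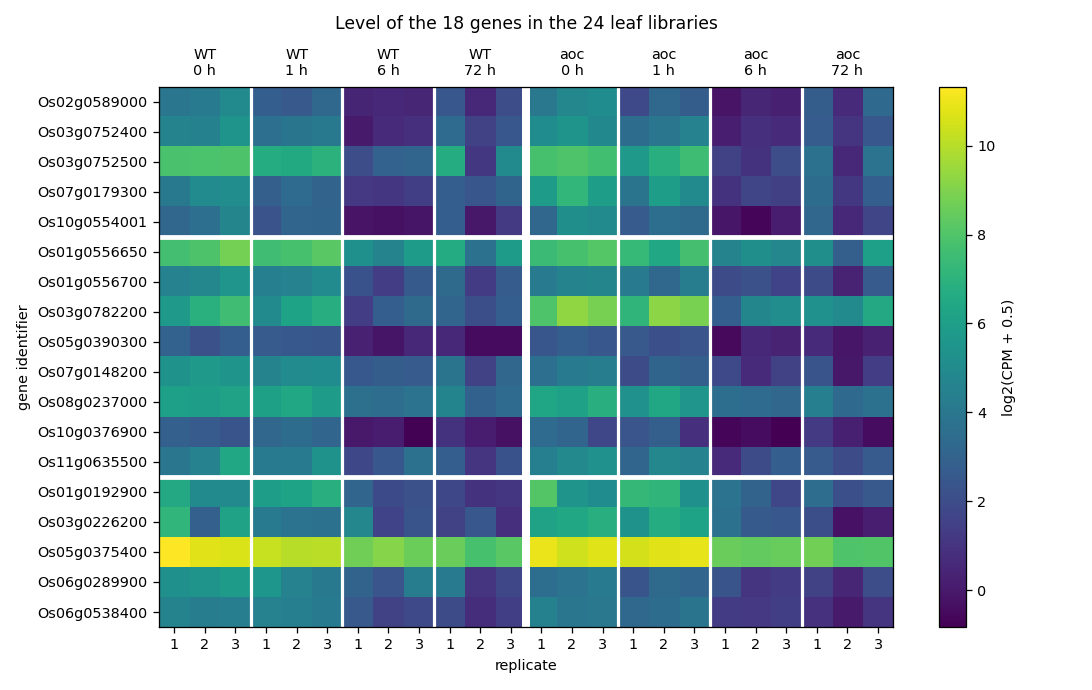
Level of each of the 18 genes (rows, by identifier) in each of the 24 leaf libraries (columns, by genotype, hour and replicate), as log2(CPM + 0.5) on the colour scale. White lines separate genes with 72 h levels at least 2-fold above 6 h in both genotypes (top 5 rows), genes with another order (8 rows) and genes with 72 h below 6 h in both genotypes (bottom 5 rows). The dark columns of 6 h and of 72 h replicate 2 stand out in most rows.

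The 6 h and 72 h levels stood in different orders, and the groupings that follow were drawn, and tried without single libraries, after the values were seen. For 5 genes (Os02g0589000, Os03g0752400, Os03g0752500, Os07g0179300 and Os10g0554001) L at 72 h was higher than at 6 h by at least 1, that is 2-fold, in both genotypes. Os10g0554001 stood at 8.46, 11.6 and 25.8 CPM at 0 h in WT leaf, at 0.390, 0.331 and 0.400 CPM at 6 h, and at 6.40, 0.459 and 1.89 CPM at 72 h. In aoc leaf it stood at 8.63, 36.8 and 30.8 CPM at 0 h, at 0.452, 0.122 and 0.599 CPM at 6 h, and at 8.55, 0.998 and 2.82 CPM at 72 h. Every 72 h library of this gene lay above all 6 h libraries and below all 0 h libraries of its genotype. Without WT replicate 1 of 72 h, 3 of the 5 genes still met the 2-fold cut, Os02g0589000 and Os10g0554001 falling short. Without aoc replicate 1 of 72 h, 4 met it, all but Os07g0179300. The same 5 genes were the ones with L at 1 h of -0.9 or less in both genotypes, a cut also set after the values were seen. At a 2-fold cut, Os03g0752500 would not be among them. The L of the 5 genes at 1 h ran from -1.69 (Os07g0179300) to -1.05 (Os03g0752400) in WT. In aoc it ran from -1.96 (Os02g0589000) to -0.94 (Os03g0752500).

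For 5 other genes (Os01g0192900, Os03g0226200, Os05g0375400, Os06g0289900 and Os06g0538400) the 72 h mean was below the 6 h mean in both genotypes. Os01g0192900 stood at 90.6, 31.1 and 31.4 CPM at 0 h in WT leaf, at 59.8, 73.2 and 109.6 CPM at 1 h, at 8.21, 3.26 and 4.10 CPM at 6 h, and at 3.04, 1.41 and 1.63 CPM at 72 h. There its 1 h libraries overlapped those of 0 h, and its 72 h libraries all lay below those of 6 h. In aoc leaf it held 13.5, 7.78 and 2.87 CPM at 6 h and 10.8, 3.90 and 5.39 CPM at 72 h, and these groups overlapped. The order of the 6 h and 72 h means rested on single libraries for 2 of the 5 genes. Without aoc replicate 2 of 72 h, or without aoc replicate 1 of 6 h, Os01g0192900 and Os06g0289900 had the higher mean at 72 h in aoc, so 3 of the 5 kept the order. Their aoc means without the 72 h library were 8.05 CPM at 6 h and 8.08 CPM at 72 h for Os01g0192900, and 2.69 and 2.98 CPM for Os06g0289900. Without WT replicate 3 of 6 h, Os06g0289900 lost the order in WT, and 4 of the 5 kept it. The other 8 genes had neither order in both genotypes. Among them, Os08g0237000 stood at 65.7 ± 5.98 CPM at 0 h, 69.1 ± 13.5 CPM at 1 h, 12.1 ± 1.22 CPM at 6 h and 13.9 ± 9.26 CPM at 72 h in WT leaf.

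**Figure D2:**
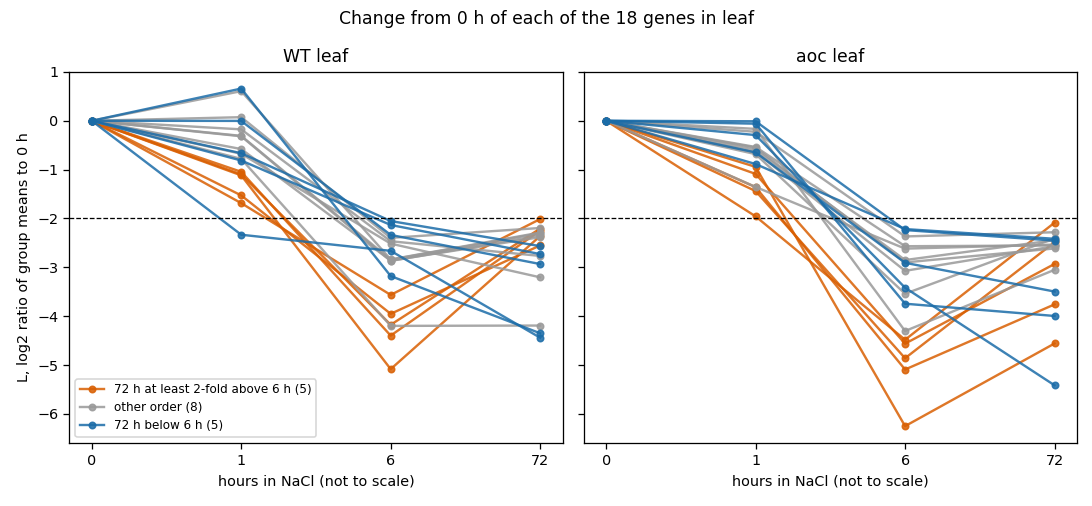
L of each of the 18 genes against hours in NaCl (0, 1, 6 and 72 h, not to scale) in WT leaf (left) and aoc leaf (right), with the rule's threshold of -2 as a dashed line. The 5 orange lines, with 72 h at least 2-fold above 6 h, reach their lowest point at 6 h, and the 5 blue lines, with 72 h below 6 h, reach it at 72 h.

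The 72 h values differed far more between replicates than those of the other hours. Replicate 2 was the lowest of the 3 libraries for 16 of 18 genes in WT and for 17 of 18 in aoc, where among all genes at the level minimum it was the lowest in 22.9% and 31.3%. The median gene of the 18 stood at 24.3% of its 0 h mean in WT replicate 1, at 4.94% in replicate 2 and at 12.8% in replicate 3. In aoc it stood at 16.7%, 4.09% and 13.8%. The median coefficient of variation of the 18 was 66.5% in WT and 66.0% in aoc at 72 h, and between 20.6% and 46.2% at the earlier hours. Over all genes at the level minimum it was 23.4% and 23.7% at 72 h and between 9.51% and 13.6% earlier, so the wider spread at 72 h was a feature of these leaf groups as a whole. Os03g0752500 was the extreme case, with 103, 1.68 and 31.1 CPM in WT and 12.9, 0.998 and 13.3 CPM in aoc. In replicate 2 of each genotype it lay below every 6 h library, and in replicates 1 and 3 above every 6 h library. Of the 5 genes with 72 h above 6 h, all 5 lay above every 6 h library in replicates 1 and 3 of both genotypes, 4 did in WT replicate 2 and 3 in aoc replicate 2. These 5 were grouped on the same libraries, so this follows in part from the grouping. Of all 18 genes, 10, 5 and 8 lay above every 6 h library in WT replicates 1, 2 and 3. In aoc there were 12, 4 and 10. The share over all genes is not given here, and nothing is read from these counts. The set itself rests in part on single leaf libraries. Without WT replicate 2 of 72 h, 13 genes met the rule, 10 of them among the 18, and without both replicates 2 of 72 h, 13 met it, 9 of them among the 18. Without WT replicate 3 of 0 h, 13 met it, 11 of them among the 18.

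**Figure D3:**
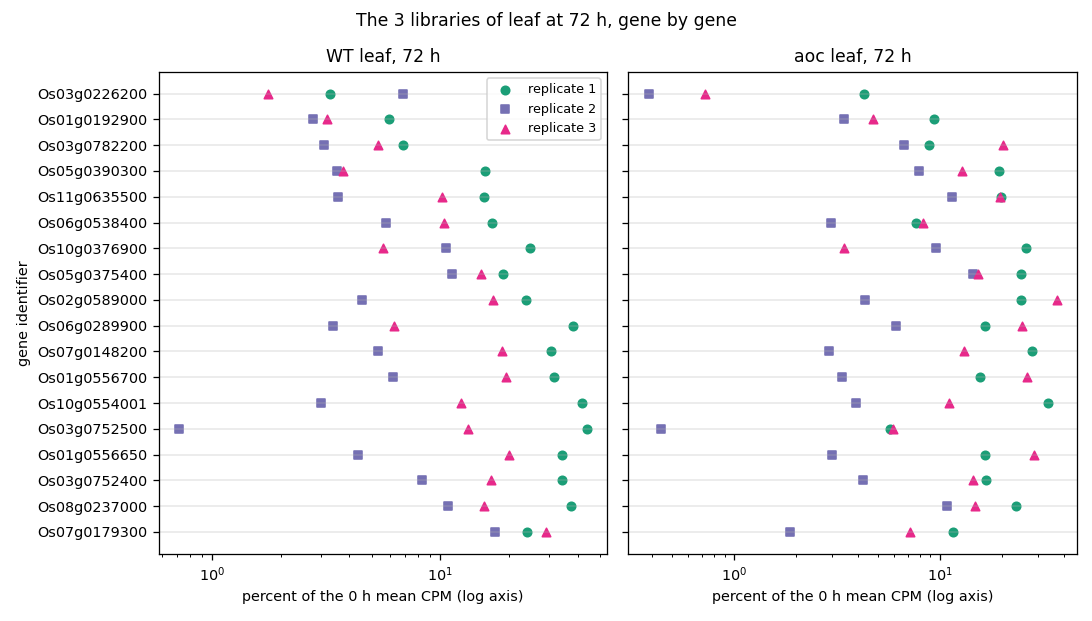
CPM of each of the 18 genes in the 3 leaf libraries of 72 h as a percent of the gene's 0 h mean (log axis), in WT (left) and aoc (right). Circles are replicate 1, squares replicate 2 and triangles replicate 3. Squares lie furthest left for 16 of 18 genes in WT and 17 of 18 in aoc.

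At 1 h the leaf levels of the 18 lay between those of 0 h and 6 h for most genes. L was below 0 for 15 genes in WT and for 18 in aoc, with medians of -0.67 and -0.64. In WT, 7 genes had all 3 libraries of 1 h below all of 0 h and 1 had all above, where 14.2% of all genes at the level minimum were separated downward and 15.9% upward. In aoc, 6 were separated downward, where 17.8% of all genes were. The one gene above was Os10g0376900, with 7.04, 5.86 and 4.49 CPM at 0 h and 8.60, 10.5 and 8.18 CPM at 1 h in WT. By edgeR's quasi-likelihood test, with p adjusted over all 24317 genes tested in leaf, 0 of the 18 were called at 1 h against 0 h in either genotype. The share of all genes called lower was 0.461% in WT and 0.329% in aoc. Called higher were 199 of the 24317 genes in WT and 79 in aoc. At an unadjusted p under 0.05 there were 5 of the 18 in WT, beside 13.4% of all genes tested, and 3 in aoc, beside 12.9%. DESeq2 called 2 and 0. The median log2 fold change of the 18 was -0.77 in WT and -0.58 in aoc, beside 0.01 and -0.01 over all genes tested. The 0 h libraries had also chosen the genes as high, so these changes are a description. The nearest to a call in WT was Os05g0375400, whose libraries held 1261, 1026 and 1085 CPM at 1 h, all below those of 0 h. Its log2 fold change was -0.86 ± 0.22 (± SE, as for all fold changes), with an edgeR adjusted p of 0.0671. With the 72 h libraries left out of the fit, an alternative chosen after seeing the data, edgeR called Os02g0589000 and Os05g0375400 in WT and Os02g0589000 and Os07g0148200 in aoc, all lower.

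The genotypes could be compared in leaf at 1 h, in libraries that the rule did not use. Of the 18 genes, 3 were higher in aoc than in WT, beside 2.53% of all 24317 genes, and 0 were lower, beside 489 of the 24317. At an unadjusted p under 0.05 there were 6 of the 18, beside 19.3% of all genes. Os07g0179300 stood at 6.73, 10.2 and 7.69 CPM in WT and at 14.0, 60.8 and 29.7 CPM in aoc, with no overlap. Its log2 difference was 2.39 ± 0.60 with an edgeR adjusted p of 0.0295. Os05g0375400 stood at 1486, 1727 and 1870 CPM in aoc, above all WT libraries, with a log2 difference of 0.90 ± 0.22 and an edgeR adjusted p of 0.0281. Os03g0782200 stood at 30.7, 74.0 and 108 CPM in WT and at 137, 585 and 476 CPM in aoc. These groups did not overlap either, and the log2 difference was 2.79 ± 0.79 with an edgeR adjusted p of 0.0494. All 3 calls were lost when any 1 of 5 of the 6 compared libraries was left out, the exception being aoc replicate 1, and edgeR adjusted p-values then lay at up to 0.198. The call of Os03g0782200 was also lost with no filter on low counts, at an edgeR adjusted p of 0.0746, and in a fit of only these groups, at 0.0619. DESeq2 called 5 genes, with Os03g0226200 also higher and Os07g0148200 lower in aoc.

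Some of these differences in mean were also seen at 0 h, where they were not tested. Os03g0782200 held 51.4, 119 and 196 CPM in WT leaf and 254, 631 and 459 CPM in aoc leaf at 0 h, where the mean in aoc was 3.67-fold that of WT. The ratio was 5.63 at 1 h, 3.59 at 6 h and 8.63 at 72 h, so aoc was the higher at every hour. Os07g0179300 was 3.28-fold higher in aoc at 0 h and 4.25-fold at 1 h, while at 6 and 72 h the ratio was 1.16 and 0.962. Other genes stood the other way round, among them Os07g0148200 and Os06g0289900. Os07g0148200 held 40.2, 52.4 and 42.9 CPM in WT and 11.9, 17.0 and 19.6 CPM in aoc at 0 h, and WT had 5.01-fold the aoc mean at 1 h, with a log2 difference of -2.02 ± 0.59 and an edgeR adjusted p of 0.0559. Os06g0289900 held 37.6, 43.3 and 57.0 CPM in WT and 11.5, 13.6 and 17.9 CPM in aoc at 0 h, and WT had 3.83-fold the aoc mean at 1 h, with a log2 difference of -1.59 ± 0.72 and an edgeR adjusted p of 0.230. The 0 h libraries belong to the values that the rule used, and no genotype difference at 0 h is read from them. Relative to its own 0 h mean, aoc was lower than WT at 6 h for 15 of 18 genes and at 72 h for 12. These counts use the values that chose the genes, and the share over all genes is not given here. No genotype difference is read from them. For the change at 1 h, which the rule did not set, the difference of aoc change and WT change was called by edgeR for 0 of 18 genes. At an unadjusted p under 0.05 there was 1 of the 18, beside 4.86% of all genes.

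**Figure D4:**
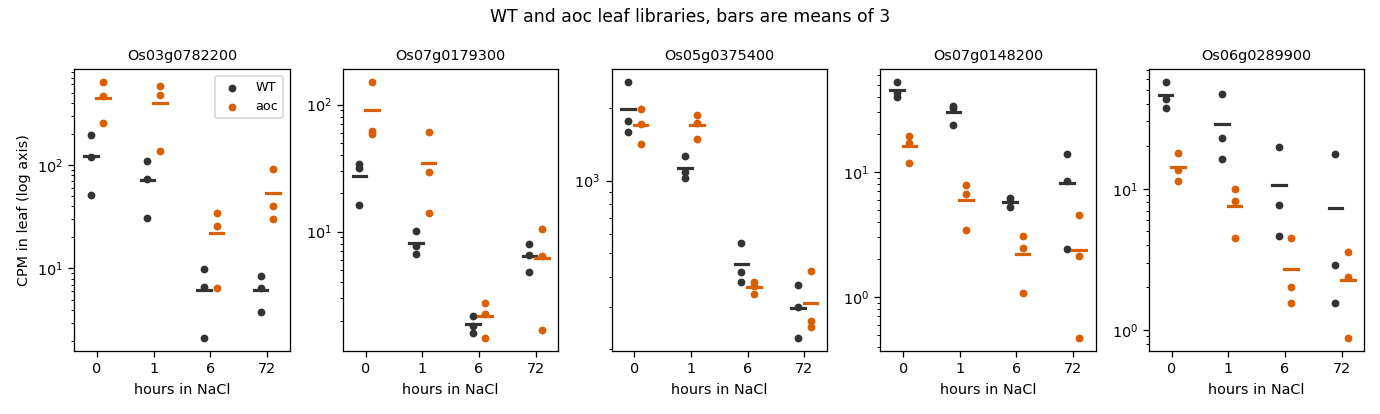
CPM (log axis) in the leaf libraries of WT (black) and aoc (orange) against hours in NaCl for 5 of the 18 genes, 1 gene a panel. Points are libraries and bars the means of 3. At 1 h the aoc points lie above the WT points for Os03g0782200, Os07g0179300 and Os05g0375400 and below them for Os07g0148200 and Os06g0289900.

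Among the 18 identifiers, 2 pairs are direct neighbours in the table. Os01g0556650 and Os01g0556700 moved in step across the 24 leaf libraries, with counts of the first 6.55 to 11.3 times those of the second (median 9.55) and a Pearson r of 0.992 between log2 values. These points share the same libraries, hours and genotypes. The rule also chose every member for falls at 6 and 72 h in most of these libraries. A high r in leaf is thus partly set by the rule for either pair, and nothing is read from it. The sources used here give neither the strand setting of the counting nor the gene models, so reads of overlapping models could be shared and the pair may not be 2 separate measurements. Os03g0752500 held 0.667 to 10.6 times the counts of Os03g0752400 (median 6.50) over the same libraries, with r = 0.946. The lowest ratio came from aoc replicate 2 of 72 h, where the genes held 0.998 and 1.497 CPM. Across the 24 root libraries Os01g0556650 held 1.46 to 40.0 times the counts of Os01g0556700 (median 14.0, r = 0.804), over the 21 libraries in which the latter had a read. The order of the other pair was turned round in root, where Os03g0752400 held 2.67 to 108 times the counts of Os03g0752500 (median 21.0, r = 0.606), over 23 libraries. The second-named genes had root medians of only 0.142 and 0.127 CPM, so these root ratios rest on few reads.

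Root levels of the 18 genes at 0 h ran from no read to 1173 CPM. For 5 genes (Os01g0556700, Os02g0589000, Os03g0752500, Os03g0782200 and Os11g0635500) every root group mean was under 1 CPM. Os11g0635500 had 1 read in the 24 root libraries, and its WT leaf mean at 0 h of 41.2 ± 38.8 CPM was at least 1381-fold higher than the floor of 3 counts over the 3 root libraries. Its leaf libraries held 15.1, 22.8 and 85.9 CPM, and without replicate 3, left out after seeing the values, it was at least 634-fold higher. Os03g0782200 had 18 reads in 8 of the 24. Another 5 had at least as high a mean in WT root as in WT leaf at 0 h, among them Os08g0237000, with 864, 1160 and 1495 CPM in root and 65.6, 59.7 and 71.7 CPM in leaf, a ratio of 17.9. For the other 4 (Os03g0226200, Os05g0390300, Os07g0148200 and Os10g0376900) the ratio of root mean to leaf mean ran from 1.005 to 2.00.

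Root libraries were not used by the rule, so the changes there can be tested. Of the 18 genes, 15 had enough root counts to be tested among 26195, and Os02g0589000, Os03g0782200 and Os11g0635500 did not. In 6 changes from 0 h (1, 6 and 72 h, WT and aoc), 10 genes were lower in at least 1 and 3 were higher in at least 1, with 1 gene among both. Over all genes tested, 35.7% were lower in at least 1 of these changes and 36.6% higher in at least 1. No call was made for 6 of the 18, the 3 untested ones included. The 3 changes of a genotype share its 0 h libraries, so they are not independent of each other.

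At 1 h, 7 of 15 genes were lower in WT root and 0 higher, where 16.5% of all 26195 genes tested were lower and 4589 were higher. In aoc root, 4 were lower and 1 higher, where 16.6% of all were lower and 18.1% higher. The 4 lower in aoc, Os01g0192900, Os03g0752400, Os07g0148200 and Os10g0554001, were also lower in WT, where Os03g0752500, Os05g0390300 and Os10g0376900 joined them. Without WT replicate 2 of 0 h or replicate 1 of 1 h, 4 genes were called in WT. Counts in WT root fell furthest for Os03g0752500, which held 0.325, 0.179 and 1.27 CPM at 0 h and 0, 0.0316 and 0.0140 CPM at 1 h. Its log2 fold change of -4.92 ± 1.20 (edgeR adjusted p = 0.00355) rests on 59 reads at 0 h and 2 at 1 h, a ratio of 40.5 with an exact 95% counting interval of 10.7 to 342. Os01g0192900 held 17.7, 35.0 and 27.2 CPM at 0 h and 2.51, 5.75 and 3.63 CPM at 1 h in WT root, and the log2 fold change was -2.65 ± 0.47, with an edgeR adjusted p of 0.000256. In aoc root it fell by 1.85 ± 0.45, with an edgeR adjusted p of 0.00362. This is a gene whose leaf libraries of 1 h overlapped those of 0 h in both genotypes. The gene higher in aoc root was Os07g0179300, from 0.949, 0.805 and 0.842 CPM to 1.51, 2.14 and 0.856 CPM. Its log2 fold change of 0.86 ± 0.30 (edgeR adjusted p = 0.0304) came with overlapping groups, and the call was lost without any 1 of 5 of the 6 libraries and with the compared groups alone. With the replicate number as a block, 8 genes were called in aoc root at 1 h, with Os01g0556650 also higher and Os05g0390300 and Os10g0376900 also lower.

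At 6 h, 5 genes were lower in WT root and 2 higher, where 11.9% of all genes were lower and 13.0% higher. In aoc root, 6 were lower and 0 higher, where 16.6% of all 26195 were lower and 4381 were higher. Lower in both were 3 genes, Os03g0752400, Os07g0148200 and Os08g0237000. Lower in WT were also Os01g0192900 and Os05g0375400, and lower in aoc also Os03g0226200, Os03g0752500 and Os10g0554001. The 7 calls of WT became 4 without replicate 3 of 0 h or without replicate 1 or 2 of 6 h. Os03g0752400 fell in both genotypes at this hour, from 4.94, 4.51 and 3.38 CPM to 2.18, 1.43 and 0.975 CPM in WT and from 3.43, 3.68 and 4.59 CPM to 1.40, 2.08 and 1.44 CPM in aoc. The log2 fold changes were -1.52 ± 0.27 and -1.31 ± 0.27, with edgeR adjusted p-values of 0.00059 and 0.00115. It had fallen at 1 h in both genotypes, and at 72 h it stood near its 0 h level again, with log2 fold changes of 0.05 ± 0.26 and -0.20 ± 0.26. Os05g0375400 fell in WT root from 546, 436 and 659 CPM to 117, 174 and 210.1 CPM, by 1.74 ± 0.55 on the log2 scale with an edgeR adjusted p of 0.0257. Without WT replicate 3 of 0 h, or without WT replicate 1 or 2 of 6 h, Os05g0375400 was no longer called. Os03g0752500 stood at 0.0918, 0.245 and 1.66 CPM in aoc root at 0 h and at 0.0622, 0.0962 and 0.0602 CPM at 6 h, with overlapping groups. Its log2 fold change of -3.23 ± 0.99 came with an edgeR adjusted p of 0.0175, and was -1.23 with an adjusted p of 0.376 without aoc replicate 3 of 0 h. With the replicate number as a block, Os05g0375400 was called lower in aoc root too, with a log2 fold change of -1.18 and an edgeR adjusted p of 0.0339. The block also added Os03g0226200 and Os06g0538400 among the lower genes in WT root, which made 9 calls. In aoc root it added Os06g0538400 among the lower and Os06g0289900 among the higher, which made 9 calls as well.

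At 72 h, 4 genes were lower and 1 higher in each genotype, where 9.73% of all genes were lower and 9.19% higher in WT, and 10.3% lower and 9.46% higher in aoc. The lower 4 were the same in WT and aoc, namely Os03g0226200, Os07g0148200, Os08g0237000 and Os10g0554001. The 5 calls became 3 in WT without replicate 3 of 0 h, and 3 in aoc without replicate 3 of 0 h or replicate 2 or 3 of 72 h. Os03g0226200 held 81.8, 82.2 and 63.1 CPM at 0 h and 14.7, 33.0 and 15.7 CPM at 72 h in WT root. It fell there by 1.87 ± 0.45 on the log2 scale, with an edgeR adjusted p of 0.00971. In aoc root it fell by 1.82 ± 0.45 with an edgeR adjusted p of 0.0101, which was 0.0939 with the compared groups alone. In both tissues, then, it was lower at 72 h than at 0 h in all libraries. Os08g0237000 held 379, 370.1 and 387 CPM in WT root at 72 h, all below 0 h, and its log2 fold change was -1.66 ± 0.30 with an edgeR adjusted p of 0.00172. In aoc it fell by 1.01 ± 0.29 (edgeR adjusted p = 0.0224), a call lost without aoc replicate 2 or 3 of 0 h or of 72 h.

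Over the 6 root changes, Os07g0148200 was the gene lower in all 6. In WT root it held 40.0, 54.9 and 41.2 CPM at 0 h, 12.7, 18.1 and 14.4 CPM at 1 h, 11.4, 27.1 and 15.4 CPM at 6 h, and 13.0, 19.8 and 25.6 CPM at 72 h. In aoc root it held 21.2, 33.4 and 30.9 CPM at 0 h, 5.56, 5.31 and 7.18 CPM at 1 h, 9.89, 11.4 and 10.9 CPM at 6 h, and 12.1, 11.6 and 12.9 CPM at 72 h. Every library after salt lay below every 0 h library of its genotype. Log2 fold changes ran from -1.48 ± 0.27 at 1 h to -1.25 ± 0.27 at 72 h in WT, and from -2.19 ± 0.28 at 1 h (edgeR adjusted p = 9.17e-06) to -1.29 ± 0.27 at 72 h in aoc. Os10g0554001 was lower in 5 of 6, WT at 6 h being the exception with a log2 fold change of -0.36 ± 0.29. Its call in WT at 1 h was lost without replicate 2 of 0 h or replicate 1 of 1 h, in WT at 72 h without replicate 2 or 3 of 0 h or replicate 3 of 72 h, and in aoc at 1 h without replicate 2 of 0 h. Os03g0752400 and Os08g0237000 were lower in 4 each.

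Higher root values were called for 3 genes. Os05g0390300 held 6.62, 7.85 and 5.61 CPM at 0 h in WT root, 13.6, 17.8 and 14.9 CPM at 6 h, and 11.7, 14.1 and 11.7 CPM at 72 h. It rose by 1.17 ± 0.23 at 6 h (edgeR adjusted p = 0.00131) and by 0.88 ± 0.23 at 72 h (edgeR adjusted p = 0.0141), after a fall by 0.63 ± 0.23 at 1 h (edgeR adjusted p = 0.0434). The 72 h call was lost without WT replicate 3 of 0 h or replicate 2 of 72 h, and the 1 h call under RLE size factors, with no filter on low counts and without any 1 of 4 libraries. In aoc root it held 8.69, 9.59 and 9.49 CPM at 0 h and 9.61, 11.8 and 16.0 CPM at 6 h, where the log2 fold change of 0.36 ± 0.23 was not called. Os06g0289900 held 0.429, 0.700 and 0.485 CPM at 0 h and 0.807, 3.21 and 2.66 CPM at 72 h in aoc root, a rise by 1.99 ± 0.58 (edgeR adjusted p = 0.0231). In WT root it rose by 1.68 ± 0.55 at 6 h (edgeR adjusted p = 0.0313), with 1 library of 6 h below the highest of 0 h. Each of these calls was lost when any of 4 libraries was left out and in a fit of the compared groups alone. Over all 15 genes tested, the median log2 fold change in WT root was -0.63 at 1 h, -0.67 at 6 h and 0.08 at 72 h, beside -0.03, 0.01 and 0.03 over all genes. In aoc root it was -0.77, -1.01 and -0.47, beside -0.04, 0.02 and 0.01.

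**Figure D5:**
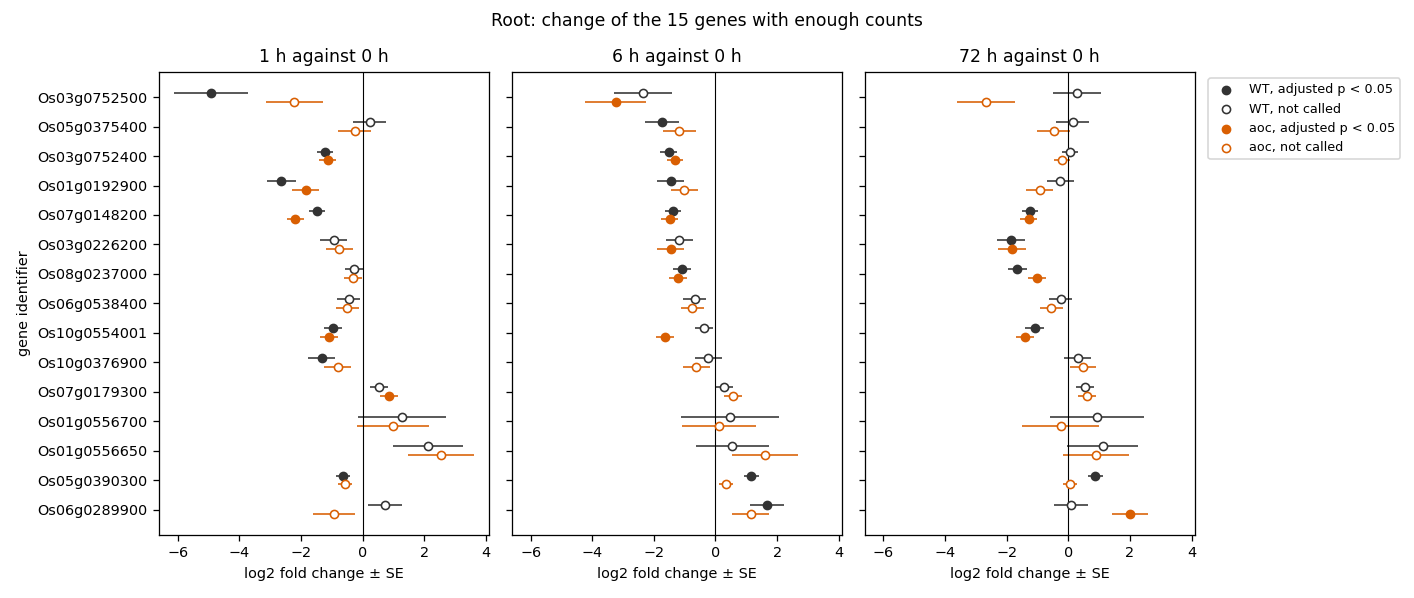
Log2 fold change from 0 h (± SE, edgeR) of the 15 genes tested in root at 1 h (left), 6 h (middle) and 72 h (right), in WT (black) and aoc (orange). Filled points have an adjusted p under 0.05. Os07g0148200 is filled and below 0 in all 6 changes, and Os05g0390300 is filled and above 0 in WT at 6 and 72 h.

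Between the genotypes, root differed for 2 of the 15 genes at 1 h, both lower in aoc, where 2.06% of all genes were lower. These 4 root comparisons were added after seeing the data. Os06g0289900 held 0.722, 1.68 and 2.65 CPM in WT root and 0.247, 0.291 and 0.263 CPM in aoc root at 1 h, with no overlap. The log2 difference was -2.69 ± 0.63 (edgeR adjusted p = 0.0200), a call lost without WT replicate 3 or without any 1 aoc library. Os07g0148200 differed by -1.35 ± 0.28 (edgeR adjusted p = 0.00897), and lost its call without aoc replicate 2, at an adjusted p of 0.0522. These genes also had lower aoc means in leaf at 0 h and 1 h, but so did other members, among them Os01g0556650 and Os06g0538400. At 0, 6 and 72 h, edgeR and DESeq2 called 0 of the genes between genotypes in root, with 2, 4 and 2 of 15 at an unadjusted edgeR p under 0.05, beside 11.4%, 15.2% and 17.0% of all genes. With the replicate number as a block, Os06g0289900 was called lower in aoc at 6 h too, with a log2 difference of -1.47 and an edgeR adjusted p of 0.0177. The difference of aoc change and WT change in root was called for 0 of 15 genes at each of 1, 6 and 72 h, with 0, 2 and 3 at an unadjusted p under 0.05, beside 4.35%, 4.13% and 5.39% of all genes.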

How the data were processed

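RNA was sequenced as paired ends of 150 bp from 48 libraries with a RIN of at least 6, per the labels' protocols. The values are raw read counts per gene in 1 table deposited by the authors. The submitters' processing notes list fastp, HISAT2 and DESeq2, with no version, and IRGSP-1.0 as the genome build. Counter, strand setting, annotation release and filters: not given in the sources used here. Every column was mapped to samples by their labels, 0 were left over, and 0 rows named no gene. No library was a copy of another of its group: the chi-square per degree of freedom was at least 25.7 in leaf pairs and 16.3 in root pairs.

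The main tests on the counts used edgeR 4.0.16 with limma 3.58.1 under R 4.3.3 (TMM, filterByExpr by group, robust quasi-likelihood F test). The 24 libraries of a tissue entered 1 fit, with Benjamini-Hochberg adjustment over all genes tested and calls at an adjusted p under 0.05. The SE is the fold change over the root of F. The script was tested on simulated data. Levels are CPM by column total.

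The members and lists were chosen with earlier results of these data known. Genes to print were ranked by leaf level at 0 h, by mean L, by nearness to the threshold, and by fold change among called genes with groups that did not overlap, at most 2 per direction for identifiers without annotation. The other identifiers of the set were added after their values were seen, to account for every member. The gene lists by product name matched 0 identifiers and were not analysed here.

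The labels number replicates 1 to 3 in every group and do not say that a number marks a shared batch. Same-numbered libraries deviated together, with every correlation over 0.1, in root for aoc at 1 h (0.145 to 0.396), WT at 6 h (0.212 to 0.315), aoc at 6 h (up to 0.431) and between the genotypes at each hour. This was not so in leaf or for the changes in root at 72 h. WT root at 1 h fell just short of this cut, with correlations of 0.098 to 0.453. Alternatives were RLE factors, no count filter, DESeq2 1.42.0, the replicate block, the compared groups alone, and each library left out in turn.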

Additional observations from a re-analysis of the deposited data

Results flagged for a closer look

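For 8 changes, leaf and root had opposite directions, with every leaf library of the hour below all of 0 h and every root library above all of 0 h. Of the 18 genes this was 1 in WT at each of 1, 6 and 72 h, 3 in aoc at 6 h and 2 in aoc at 72 h. With the same criteria, including a root mean of at least 1 CPM at that hour, it was seen in 1.46%, 2.77% and 2.36% of the 13337 genes at the level minimum in WT, and in 3.52% and 1.39% in aoc at 6 and 72 h. At 6 and 72 h the rule had nearly set the leaf part of these criteria for the 18. That part alone was met by 17 or 18 of the 18 genes, beside 15.9% to 27.3% of the 13337. The shares are therefore not alike, and nothing is read from them. The difference between the tissues was not tested, and tissue and RNA extraction cannot be told apart. Os05g0390300 had a root L of 1.14 in WT at 6 h, 0.85 in WT at 72 h and 0.41 in aoc at 6 h. Os06g0289900 had a root L of 0.75 in aoc at 6 h and 1.39 in aoc at 72 h. For Os07g0179300 the root L was 0.30 in WT at 1 h, 0.43 in aoc at 6 h and 0.46 in aoc at 72 h. Root levels of the last gene were 0.805 to 2.14 CPM, so its differences rest on few reads.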

How the results depend on the processing

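The number of genes that met the rule was 11 with an added constant of 2 CPM, 73 at an L of -1.5 or less and 2 at -3 or less. It was 26 with a constant of 0.1 CPM or with medians, 25 with TMM factors and 16 with a minimum of 10 CPM, and 13 to 24 without 1 library. In leaf at 1 h, the 0 calls of WT became 1 with the replicate block, 1 with the compared groups alone, 2 with DESeq2 and 2 without the 72 h libraries in the fit, and the 0 calls of aoc became 2 in the last. Between the genotypes in leaf at 1 h, 3 calls became 5 with DESeq2, 0 with WT 1 h replicate 3 and aoc 0 h replicate 3 both left out, and 0 to 3 without 1 library. In root, leaving out 1 library gave 4 to 7 calls for WT and 4 to 7 for aoc at 1 h, 4 to 6 and 4 to 7 at 6 h, 3 to 5 and 3 to 6 at 72 h, and 0 to 2 and 0 to 1 between the genotypes at 1 and 6 h. With the compared groups alone, aoc at 72 h had 3 calls. The replicate block moved aoc at 1 h from 5 to 8 and the genotypes at 6 h from 0 to 1. Some comparisons had correlations of same-numbered libraries that were not all over 0.1. There the block gave 1, 0 and 4 calls in leaf, 8 in WT root at 1 h and 5 in root of each genotype at 72 h. Of 40 calls of single genes, 19 kept their side in every alternative run, 21 were lost in at least 1, 8 of these beyond leaving out 1 library, and 0 changed sign. The causes were not tested. Groups of 3 and low root counts limit what could be called.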
